A study of Mus musculus with 6 samples.

Results

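The 42 genes described here encode the enzymes that make and reduce glutathione, the thioredoxin system, the enzymes that remove superoxide and peroxides, and the Nrf2 regulator with some of its best known targets. They were taken by symbol from a fixed list, and 44 of the 46072 entries of the count tables carry these symbols, because Txnrd2 and Gstp1 are each listed under a pair of identifiers. RNA was measured in 6 libraries of mouse embryos collected at the 4-cell stage: 3 from embryos whose zygotes had been microinjected with siRNA against Son, and 3 control libraries. Son encodes a nuclear speckle protein that binds RNA and takes part in pre-mRNA splicing. The labels give no strain, no number of embryos per library and no description of the control injection, nor do they tell if each library had its own litter; the p-values therefore speak only of how these 6 libraries scatter, which may be technical. In whole embryos, fewer cells expressing a gene and less of its RNA per cell cannot be told apart.

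Embryos before implantation live on mitochondrial respiration and carry a store of maternal antioxidant transcripts. Superoxide dismutases turn superoxide into hydrogen peroxide, which catalase, glutathione peroxidases and peroxiredoxins reduce to water. Oxidised peroxiredoxins are reduced by thioredoxin and oxidised glutathione by glutathione reductase, both at the cost of NADPH. Nrf2, encoded by Nfe2l2, is held low by Keap1 and, when released, activates many of these genes through the antioxidant response element.

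Of all entries, 17788 passed the filter on low counts and were tested with edgeR's quasi-likelihood test, and values are given as CPM, counts scaled to a common library size with TMM factors. The libraries held 104634855 to 118865650 units of estimated count. About 4 units were taken to be 1 read pair, and a floor of 3 read pairs corresponds to 0.0906 to 0.125 CPM. Such floors, and the counting intervals of ratios, leave out amplification error, because PCR copies were not told apart by molecular identifiers. The intervals also pool the read pairs of a group, so they leave out scatter between libraries and are no test of the siRNA. Son had 41, 28 and 25.1 CPM after siRNA and 249, 322 and 332 CPM in controls, a mean of 10.4% of control (log2 -3.26, SE 0.272; edgeR adjusted p = 0.00991). Without siRNA library 1, 2 or 3 edgeR's adjusted p for Son was 0.0648, 0.0709 or 0.136, while DESeq2 called it in each case. All 10 transcripts chosen to mark oocyte-derived and early embryonic RNA reached 1 CPM in some library. Their sum was 1698 to 2056 CPM after siRNA and 2375 to 4411 CPM in controls, mostly through Dppa2. It was called lower (log2 -1.45, edgeR adjusted p = 0.0378), and its part in the results on antioxidant genes was not tested. Pou5f1 and Tdgf1 also had fitted values below 0 (log2 -1.81 and -0.71). The other markers, Dppa3, Zp3, Gdf9, Bmp15, Nlrp5, Ooep and Btg4, had values above 0, from 0.15 to 1.20, and edgeR called none of them. Markers of cumulus cells summed to 0.242 to 1.43 CPM after siRNA and 0 to 0.968 CPM in controls, with 4 of 12 at 0 in every library. Sperm markers summed to 0.19 to 0.905 CPM after siRNA and 0.194 to 1.14 CPM in controls, with 3 of 8 at 0 throughout. Blood markers summed to 6.96 to 7.69 CPM after siRNA and 4.31 to 11 CPM in controls, mostly from Hba-a1, with 5 of 8 at 0 throughout. Among them Lyz2 reached 1.37 CPM in siRNA library 3 and 1.12 CPM in control 1.

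One antioxidant gene, the carbonyl reductase gene Cbr2, was lower after Son siRNA at an adjusted p under 0.05, and 0 were higher. The summed level of the antioxidant genes was 2231 ± 250 CPM after siRNA and 2298 ± 143 CPM in controls (SD, n = 3 each). On the TMM scale the total thus differed by less than the spread between libraries. Peroxiredoxins made up most of the total, with 1412 ± 189 CPM after siRNA and 1579 ± 186 CPM in controls. Both sums depend on the scaling. The TMM factors were 1.158, 1.023 and 1.153 for the siRNA libraries and 0.8582, 1.052 and 0.8105 for controls. With total-count scaling the siRNA sums would stand higher relative to the controls. Of the 44 entries, 41 were tested. Gpx8 and the second identifiers of Txnrd2 and Gstp1 were too low, and both second identifiers were listed at 0 in every library.

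Over all 17788 genes edgeR called 0.899% lower and 0.0899% higher after siRNA, so 1 of 41 lower is near the background. By DESeq2's Wald test, Cbr2, Gsto1 and Prdx3 were lower and Glrx5 was higher, where 4.63% of all tested genes were lower and 2.28% higher. At an unadjusted p under 0.05 by edgeR there were 4 lower and 5 higher antioxidant genes, and 8.86% of all genes were lower and 5.88% higher. The siRNA and control libraries did not overlap for 6 antioxidant genes that were lower (14.6%) and 9 that were higher (22%), beside 11.6% and 12.1% of all tested genes. Among the 21 antioxidant genes at 10 CPM or more on average, 19% were lower and 14.3% higher without overlap. The shares of all genes at that level were 19% and 10.4%. Fold changes were below 0 for 16 and above 0 for 25 of the 41, with a median of 0.19 in log2, while 48.7% of all tested genes were below 0 with a median of 0.02. With total-count scaling, which shifts all genes upward, 29.3% of the antioxidant genes and 34.2% of all tested genes were below 0. The spread of log2 fold changes was like that of other genes: 26.8% of the antioxidant genes and 26.5% of all tested genes differed at least 2-fold.

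**Figure D1:**
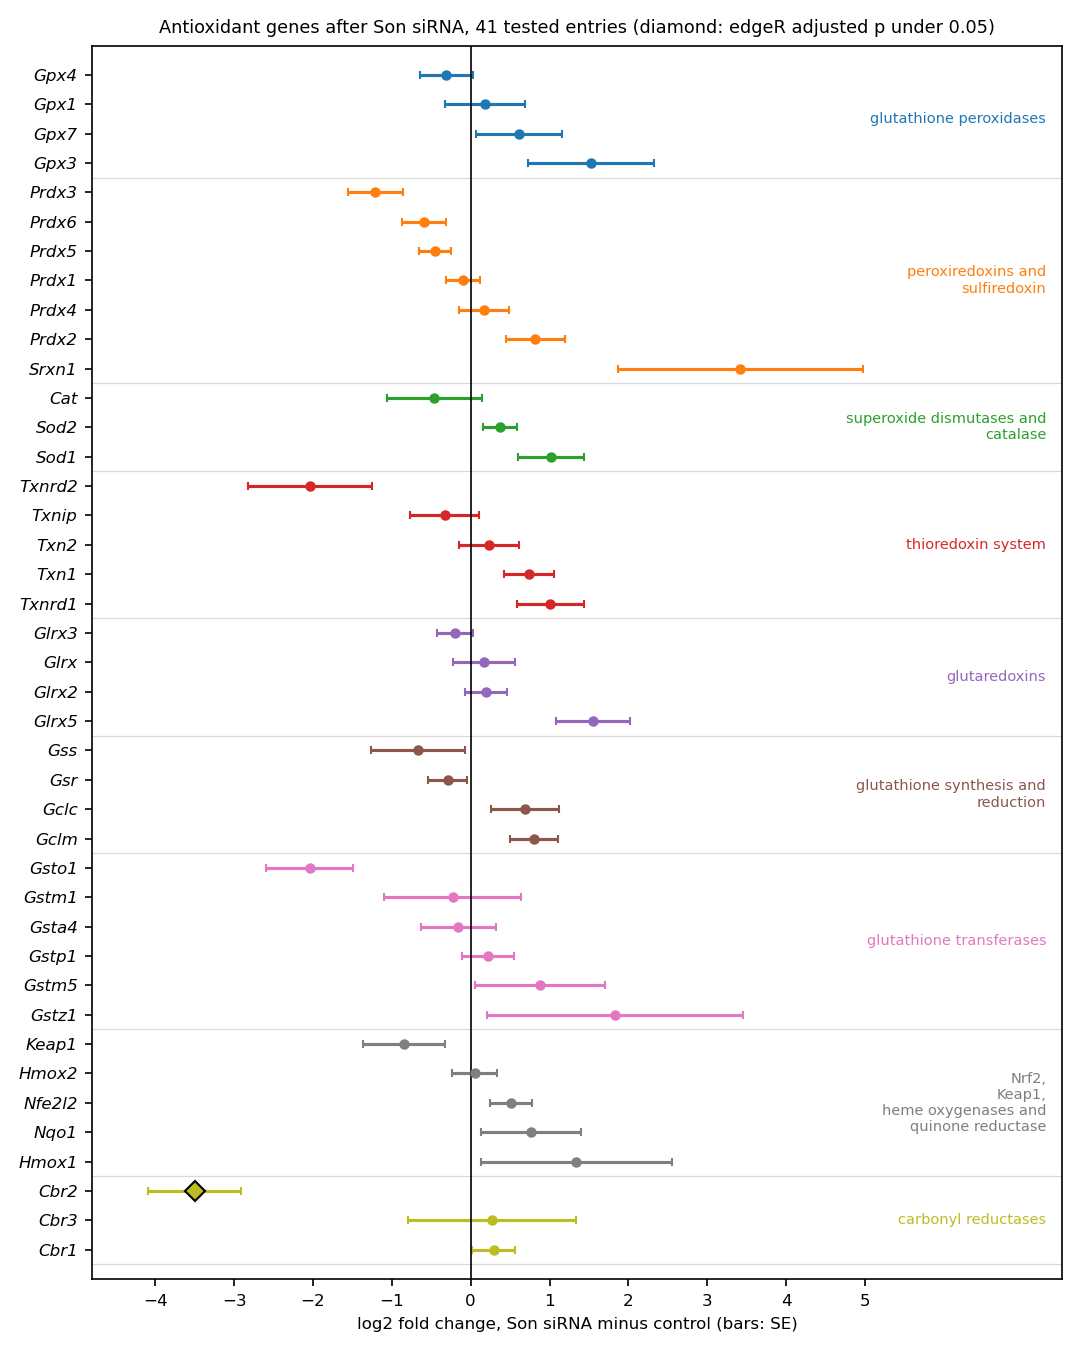
Log2 fold change of Son siRNA minus control for the 41 tested antioxidant genes, grouped by role, with bars for the SE of edgeR's fit. The diamond marks Cbr2 at -3.50, past an adjusted p of 0.05, and the other 40 points are not past it.

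The carbonyl reductases reduce aldehydes and ketones with NADPH, and of the 3 genes Cbr2 alone was called. Cbr2 (ENSMUSG00000025150) lies on the minus strand of chromosome 11, 120729489 to 120732114 on GRCm38, with 8 exons in its principal transcript. Its level was 0.297, 0.299 and 0.853 CPM after siRNA, against 6.16, 6.46 and 3.88 CPM in controls. Every siRNA library was under every control library, and siRNA library 3 held most of what remained. The deposited counts behind these levels were 36, 35 and 113 units after siRNA, against 592, 734 and 374 units in controls, or about 46 and 425 read pairs per group. The mean after siRNA was 8.78% of the control mean, which is -3.50 in log2 with an SE of 0.592 (edgeR adjusted p = 0.039; DESeq2 adjusted p = 2.85e-07). An exact permutation test, two-sided, returned p = 0.1, the smallest that n = 3 against 3 allows.

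The Cbr2 fold change stayed between -4.21 and -3.22 in all 21 alternatives, and the call was made in 12 of them. Without any 1 library edgeR's adjusted p ranged from 0.0513 to 0.277, no longer past the threshold, whereas DESeq2's ranged from 5.81e-11 to 0.000104. Without siRNA library 3 the edgeR log2 value was -4.20. Of the 100-base stretches of the Cbr2 transcript, 7.02% also occur in a predicted gene.

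Cbr1 and Cbr3 are neighbours on chromosome 16, and neither passed. Cbr1 had 26.7, 33.3 and 24.7 CPM after siRNA, against 23.6, 26.6 and 19.3 CPM in control libraries (log2 0.29, SE 0.271, edgeR adjusted p = 0.701), and the groups overlapped. Cbr3 had 0.413, 0.521 and 1.77 CPM after siRNA and 0.0833, 0.616 and 1.55 CPM in controls. Per kilobase of principal transcript, the level of Cbr1 was 22.9 CPM after siRNA and 18.7 CPM in controls, that of Cbr2 was 0.435 and 4.96 CPM, and that of Cbr3 was 0.77 and 0.64 CPM. Cbr2 therefore stood between Cbr1 and Cbr3 in controls and had the lowest mean of the 3 after siRNA, where it did not differ from Cbr3 beyond their spread.

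The 250 bases before a RefSeq start of each carbonyl reductase gene are shown because the family holds the called gene. All of the Cbr1 stretch, and the ends of the Cbr2 and Cbr3 stretches, lie inside the gene as GENCODE places it. They come from RefSeq on GRCm38.p6, are written 5′ to 3′ on the gene's strand, and have each CpG in capitals: Cbr2 on the minus strand at chr11:120732022-120732271, Cbr1 on the plus strand at chr16:93607587-93607836 and Cbr3 on the plus strand at chr16:93682969-93683218.
Cbr2: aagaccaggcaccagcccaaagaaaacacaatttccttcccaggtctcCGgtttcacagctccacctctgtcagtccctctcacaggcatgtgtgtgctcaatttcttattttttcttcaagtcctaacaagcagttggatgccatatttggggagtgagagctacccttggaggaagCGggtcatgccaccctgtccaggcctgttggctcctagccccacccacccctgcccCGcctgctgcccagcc
Cbr1: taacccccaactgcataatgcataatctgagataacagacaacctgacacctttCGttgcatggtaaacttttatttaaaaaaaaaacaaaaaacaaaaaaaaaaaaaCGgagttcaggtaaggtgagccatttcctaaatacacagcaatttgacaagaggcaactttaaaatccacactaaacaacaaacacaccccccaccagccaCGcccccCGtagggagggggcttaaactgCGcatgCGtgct
Cbr3: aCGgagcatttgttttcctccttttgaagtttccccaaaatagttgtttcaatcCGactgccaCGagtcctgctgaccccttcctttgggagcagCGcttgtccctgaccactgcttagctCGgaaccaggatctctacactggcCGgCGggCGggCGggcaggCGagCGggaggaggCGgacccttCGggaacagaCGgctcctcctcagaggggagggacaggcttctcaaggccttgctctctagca

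The Cbr2 stretch holds 3 CpG, that of Cbr1 6 and that of Cbr3 14. RefSeq windows, each 250 bases before to 50 after a start, were matched for 37 of the 42 symbols, 50 windows in all. Their median was 17 CpG, with a range of 0 to 48. The median was 19 over the 14163 windows of tested genes. The Cbr2 window has 4 CpG, and 14% of the antioxidant windows and 15.1% of the windows of tested genes have 4 or fewer.

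**Figure D2:**
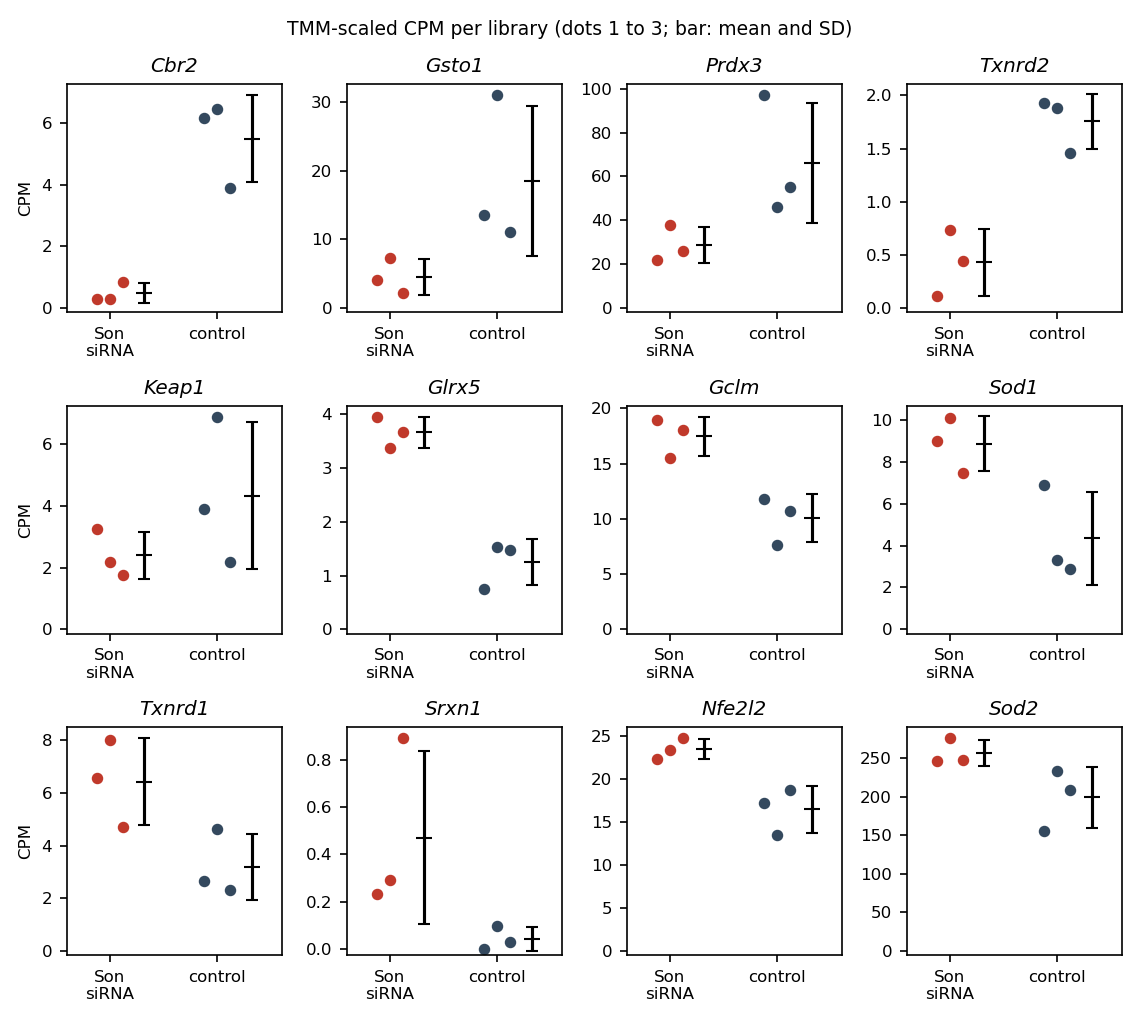
TMM-scaled CPM of 12 antioxidant genes in each library, Son siRNA on the left of each panel and control on the right, with bars for the mean and SD (n = 3 each). Cbr2, Gsto1, Prdx3 and Txnrd2 were lower in every siRNA library than in any control, Keap1 overlapped, and the other 7 were higher in every siRNA library.

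Glutathione transferases attach glutathione to reactive compounds, and none of the 6 tested entries passed edgeR's threshold, with 3 below and 3 above 0, though Gsta4 and Gstm1 turn above 0 with total-count scaling. Gsto1, an omega-class transferase that also reduces dehydroascorbate, had 4.06, 7.27 and 2.18 CPM after siRNA, against 13.5, 31 and 11 CPM in controls. The groups did not overlap, and control 2 was the highest library by a wide margin. In log2 this was -2.04 (SE 0.553, edgeR adjusted p = 0.125; DESeq2 adjusted p = 0.00314). It was -1.44 at its smallest, without control 2, and -2.57 at its largest over the alternatives, and 5 of the 21 alternatives were past, each by DESeq2. Without siRNA library 1 or 3 DESeq2 no longer called Gsto1.

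Gstz1, the maleylacetoacetate isomerase of tyrosine breakdown, had 0.157, 0.615 and 0.264 CPM after siRNA, against 0.0416, 0 and 0.249 CPM in controls. These are about 32 and 7 read pairs, a ratio of 3.77 with a 95% counting interval of 1.64 to 10.1. With the scatter between libraries, edgeR gave a log2 value of 1.83 with an SE of 1.62 (adjusted p = 0.675). Pomt2 and a predicted gene overlap 12.2% of the exonic bases of Gstz1. Gstp1, the pi-class transferase and the most abundant of the group, averaged 42.7 ± 9.81 CPM after siRNA and 36.6 ± 12.6 CPM in controls, but 52.8% of its 100-base stretches also occur in Gstp2 or a pseudogene, so its level is uncertain. Gstm5, a mu-class enzyme, had 0.999, 0.666 and 0.702 CPM after siRNA and 0.187, 0.581 and 0.519 CPM in controls, and the groups did not overlap (log2 0.88, edgeR adjusted p = 0.699). However, 13.9% of the exonic bases of Gstm5 are shared with 4933431E20Rik. Gsta4 averaged 2.15 ± 0.436 CPM after siRNA and 2.41 ± 0.87 CPM in controls. Gstm1 averaged 1.16 ± 0.502 CPM after siRNA and 1.36 ± 1.52 CPM in controls, where control 3 alone reached 3.1 CPM.

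Peroxiredoxins reduce hydrogen peroxide through a reactive cysteine, and none passed edgeR's threshold. Prdx3, the mitochondrial peroxiredoxin, had 21.8, 37.8 and 26.1 CPM after siRNA, against 97.1, 45.9 and 55.3 CPM in controls. The siRNA libraries lay under all controls, and control 1 was the highest. In log2 this was -1.21 (SE 0.351, edgeR adjusted p = 0.145; DESeq2 adjusted p = 0.0181). Without control 1 it was -0.82, and neither tool called it then; DESeq2 also did not call it without siRNA library 1 or 3 (adjusted p = 0.202 and 0.16).

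Prdx5, found in mitochondria, peroxisomes and the cytosol, had 82.3, 95.5 and 87.1 CPM after siRNA, against 107, 135 and 120 CPM in controls. The groups did not overlap, at -0.45 in log2 (SE 0.205, edgeR adjusted p = 0.353). Of its exonic bases, 19.1% overlap Trmt112. Prdx6, a peroxiredoxin that also acts on phospholipids, had 144, 243 and 145 CPM after siRNA and 199, 308 and 294 CPM in controls, with siRNA library 2 inside the control range (log2 -0.59, edgeR adjusted p = 0.375). The cytosolic Prdx2 went the other way in fitted value, with 114, 88.9 and 177 CPM after siRNA and 103, 41.3 and 71.2 CPM in control libraries (log2 0.82, edgeR adjusted p = 0.349). Its exons overlap Junb and Rnaseh2a over 11.5% of their bases.

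Prdx1, the abundant cytosolic peroxiredoxin, had the highest level of all antioxidant genes, with 842, 1108 and 879 CPM after siRNA and 1161, 795 and 1077 CPM in controls. Its groups overlapped, with a log2 fold change of -0.10 (edgeR adjusted p = 0.898) that turns above 0 with total-count scaling. Per kilobase Prdx1 had 411 CPM after siRNA and 441 CPM in controls. The next by level per kilobase in controls was Prdx6, with 74.3 CPM after siRNA and 112 CPM in controls. Prdx4, the peroxiredoxin of the endoplasmic reticulum, averaged 47.3 ± 5.49 CPM after siRNA and 42.1 ± 15.5 CPM in controls.

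Srxn1 encodes sulfiredoxin, which repairs overoxidised peroxiredoxins, and it was near the floor in controls. It had 0.231, 0.29 and 0.891 CPM after siRNA, against 0, 0.0968 and 0.0311 CPM in controls. All 3 siRNA libraries were above the floor of 12 units, and the controls, at 0, 11 and 3 units, were under it. About 45 read pairs stood against 4, a ratio of 9.29 with a 95% counting interval of 3.39 to 35.6. The difference was not past the threshold (log2 3.42, SE 1.55, edgeR adjusted p = 0.348), and siRNA library 3 held the larger share of the pairs. Without control 2 DESeq2 called Srxn1 (adjusted p = 0.0443).

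Superoxide dismutases were higher in every siRNA library than in any control, but neither passed the test. Sod1, the cytosolic copper-zinc enzyme, had 8.99, 10.1 and 7.48 CPM after siRNA, against 6.91, 3.29 and 2.87 CPM in control libraries (log2 1.02, SE 0.423, edgeR adjusted p = 0.308). Control 1 came close to the lowest siRNA library, and without it DESeq2 gave a log2 fold change of 1.51 and an adjusted p of 0.00109. Sod2, the mitochondrial manganese enzyme, had 246, 276 and 248 CPM after siRNA, against 155, 233 and 209 CPM in control libraries (log2 0.37, SE 0.217, edgeR adjusted p = 0.488). Cat, which encodes catalase, was low, at 1.92 ± 1.27 CPM after siRNA and 2.65 ± 1.21 CPM in controls.

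The thioredoxin system gave opposite fitted changes for its reductases, neither past the threshold. Txnrd2, the mitochondrial thioredoxin reductase, had 0.107, 0.735 and 0.438 CPM after siRNA, against 1.93, 1.88 and 1.46 CPM in controls. The groups did not overlap (log2 -2.04, SE 0.785, edgeR adjusted p = 0.269), and the values rest on about 39.2 read pairs after siRNA and 135 in controls. Without siRNA library 2 the log2 value for Txnrd2 was -2.68 by edgeR, not past (adjusted p = 0.309), and DESeq2 called it (adjusted p = 0.0465); without siRNA library 1 it was -1.58. Txnrd1, the cytosolic enzyme, had 6.56, 8.01 and 4.7 CPM after siRNA, against 2.64, 4.63 and 2.32 CPM in controls. These groups nearly touched, at 4.7 CPM in siRNA library 3 and 4.63 CPM in control 2 (log2 1.01, SE 0.426, edgeR adjusted p = 0.317). Without control 2 DESeq2 called Txnrd1 (log2 1.35, adjusted p = 0.0174). The difference between the 2 reductases was not tested.

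Txn1, cytosolic thioredoxin, had 32.3, 36.8 and 21.6 CPM after siRNA and 22.3, 13.6 and 18.5 CPM in controls, with siRNA library 3 just under control 1 (log2 0.74, edgeR adjusted p = 0.326). Mitochondrial Txn2 averaged 71.4 ± 31.9 CPM after siRNA and 61.1 ± 23.1 CPM in controls. Txnip, which binds and inhibits thioredoxin, averaged 6.51 ± 3.31 CPM after siRNA and 8.21 ± 1.73 CPM in controls, and 19.4% of its exonic bases overlap a predicted gene.

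Glutaredoxins use glutathione to reduce protein disulfides or to carry iron-sulfur clusters. Glrx5, a mitochondrial protein of iron-sulfur cluster assembly, had 3.95, 3.38 and 3.67 CPM after siRNA, against 0.749, 1.53 and 1.47 CPM in controls. The lowest siRNA library was over every control (log2 1.55, SE 0.472, edgeR adjusted p = 0.166; DESeq2 adjusted p = 0.034). Without control 1 or any 1 siRNA library DESeq2 no longer called it. Glrx3, a cytosolic iron-sulfur chaperone, differed little but without overlap, with 35.7, 34.5 and 34.7 CPM after siRNA against 41.2, 40.9 and 38.7 CPM in controls. Its log2 fold change was -0.20 (edgeR adjusted p = 0.758) and turned to 0.09 with total-count scaling, and 31% of its 100-base stretches also occur in a predicted gene. Glrx averaged 7.73 ± 1.43 CPM after siRNA and 6.88 ± 2.81 CPM in controls, and Glrx2 50.2 ± 3.86 CPM after siRNA and 44.1 ± 12.6 CPM in controls.

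Glutathione is made in a first step by glutamate-cysteine ligase and in a second by glutathione synthetase. Gclm, the modifier subunit of the ligase, had 18.9, 15.5 and 18 CPM after siRNA, against 11.8, 7.62 and 10.7 CPM in controls. The groups did not overlap (log2 0.80, SE 0.304, edgeR adjusted p = 0.263). Gclc, the catalytic subunit, had 45.6, 29.6 and 31.9 CPM after siRNA and 9.53, 24.2 and 32.6 CPM in controls, where control 3 was inside the siRNA range (log2 0.69, SE 0.431, edgeR adjusted p = 0.519). Gss, the synthetase, averaged 1.6 ± 0.58 CPM after siRNA and 2.54 ± 1.61 CPM in controls, and 15.4% of its exonic bases overlap other genes. Gsr, glutathione reductase, averaged 36.7 ± 3.74 CPM after siRNA and 45 ± 7.68 CPM in control libraries (log2 -0.29, edgeR adjusted p = 0.657).

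Glutathione peroxidases showed no call, and 3 of the 4 tested had a fold change above 0. Gpx3, the secreted plasma form, had 2.59, 0.854 and 2.18 CPM after siRNA and 0.489, 1.24 and 0.208 CPM in controls, with siRNA library 2 inside the control range (log2 1.53, SE 0.798, edgeR adjusted p = 0.421). Without control 2 the log2 value for Gpx3 was 2.43 by edgeR, not past (adjusted p = 0.158), and DESeq2 called it (adjusted p = 0.0347). Gpx7, of the endoplasmic reticulum, had 4.34, 4.25 and 2.86 CPM after siRNA and 0.937, 3.64 and 2.92 CPM in control libraries (log2 0.61, SE 0.545, edgeR adjusted p = 0.678). Gpx4, which reduces lipid peroxides in membranes, averaged 31.8 ± 2.35 CPM after siRNA and 39.4 ± 16.9 CPM in controls, and 55.5% of its stretches occur in pseudogene entries. Gpx1, the general cytosolic form, averaged 10.7 ± 2.59 CPM after siRNA and 9.39 ± 5.39 CPM in controls. Gpx8, the entry that was not tested, had about 14 read pairs after siRNA and 2 in controls. The pooled ratio was 5.78 with a 95% counting interval of 1.33 to 52.4. By library it had 2, 52 and 0 units after siRNA and 10, 0 and 0 units in controls. The ratio thus rests on siRNA library 2, and these counts are too few to tell if the groups differ.

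Among the regulators, Nfe2l2 had 22.4, 23.4 and 24.8 CPM after siRNA, against 17.2, 13.5 and 18.8 CPM in controls. The ranges were apart, yet the difference was small and not past the threshold (log2 0.51, SE 0.27, edgeR adjusted p = 0.431). Keap1, the adaptor through which Nrf2 is degraded, had 3.25, 2.18 and 1.75 CPM after siRNA and 3.9, 6.89 and 2.18 CPM in controls. The ranges overlapped, with siRNA library 1 above control 3 (log2 -0.85, SE 0.52, edgeR adjusted p = 0.509). A predicted gene overlaps 10.9% of the exonic bases of Keap1.

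Of Nrf2's classical targets, Hmox1, inducible heme oxygenase, had 3.38, 2.35 and 2.24 CPM after siRNA, against 0, 1.74 and 1.4 CPM in control libraries (log2 1.34, SE 1.21, edgeR adjusted p = 0.685). Control 1, in which Hmox1 was listed at 0, stood apart from the others. Nqo1, the quinone reductase, averaged 4.45 ± 1.6 CPM after siRNA and 2.64 ± 1.71 CPM in controls, with overlap (log2 0.76, edgeR adjusted p = 0.654). Hmox2, the constitutive form, averaged 86.2 ± 3.17 CPM after siRNA and 83.4 ± 30.5 CPM in controls, and its exons share 40.2% of their bases with Cdip1.

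The core of the antioxidant response element was searched in the same RefSeq windows as TGACNNNGC on both strands. It was found in 7 of the 50 antioxidant windows (14%) and in 14.2% of the windows of tested genes, which is a like share. The 7 genes were Gclm, Gstm5, Nfe2l2, Prdx1, Sod1, Srxn1 and Txnrd1. Fold changes were above 0 for 6 of them, and the 7 had a log2 median of 0.88. Of the 29 tested genes with a window but no core, 17 were above 0 with a median of 0.17. Prdx6, Gclc, Gsr, Gsta4 and Hmox1 had no window, and a core outside a window is missed. The split therefore does not sort genes by regulation through Nrf2, and the difference in medians was not tested. The cores of Gclm (plus strand, chr3:122245413-122245441), Txnrd1 (plus strand, chr10:82859104-82859132), Sod1 (plus strand, chr16:90220696-90220724) and Nfe2l2 (minus strand, chr2:75704885-75704913) are shown within 29 bases of GRCm38.p6, as the matches of Nfe2l2 itself and of those genes with an unadjusted p under 0.05, with the core or its reverse complement in capitals.
Gclm: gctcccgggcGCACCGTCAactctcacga
Txnrd1: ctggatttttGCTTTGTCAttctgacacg
Sod1: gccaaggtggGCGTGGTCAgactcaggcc
Nfe2l2: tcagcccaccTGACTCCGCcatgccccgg
A match of these letters is a description of the sequence, and binding was not measured.

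Other genes of the pathway were followed in 3 further lists, of which 72 entries were tested: 3 were lower and 0 higher by edgeR's adjusted p, with 33 fold changes below 0 and 39 above. DESeq2 called 5 of these lower, which were Idh1, Taldo1, Blvrb, Bach1 and Msrb1, and 1 higher, which was Maff. Of the 3 edgeR calls, 2 were in the list of 15 genes of NADPH supply and cystine uptake. Of all tested genes, edgeR called 0.899% lower and 0.0899% higher, and DESeq2 4.63% lower and 2.28% higher. The lists were chosen with earlier results of these data known, so setting them beside these shares is no test.

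Idh1, the cytosolic isocitrate dehydrogenase, had 2.63, 2.89 and 2.48 CPM after siRNA, against 25.3, 18 and 11.1 CPM in controls. The siRNA libraries were tightly grouped and far under all controls (log2 -2.77, SE 0.389, edgeR adjusted p = 0.0229). Taldo1, the transaldolase of the pentose phosphate pathway, had 64.8, 93.3 and 81.7 CPM after siRNA, against 220, 246 and 167 CPM in control libraries (log2 -1.40, SE 0.242, edgeR adjusted p = 0.0402). The 15 genes of NADPH supply and cystine uptake summed to 266 ± 11.3 CPM after siRNA and 456 ± 107 CPM in controls, with a median log2 fold change of -0.48. Most of the difference in the sum came from Taldo1, with means of 79.9 CPM after siRNA and 211 CPM in controls, and Nadk, with 66.8 and 122 CPM. Of the 15 genes, 8 were below 0 and 7 above, so the list was mixed. Nadk and Tkt, named after their values were seen, were the others with an unadjusted p under 0.05 by edgeR. Without siRNA library 1, 2 or 3 edgeR's adjusted p was 0.24, 0.106 or 0.2 for Idh1 and 0.294, 0.127 or 0.288 for Taldo1, and Taldo1 was also not past without control 1 or 3 (0.0895 and 0.052).

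**Figure D3:**
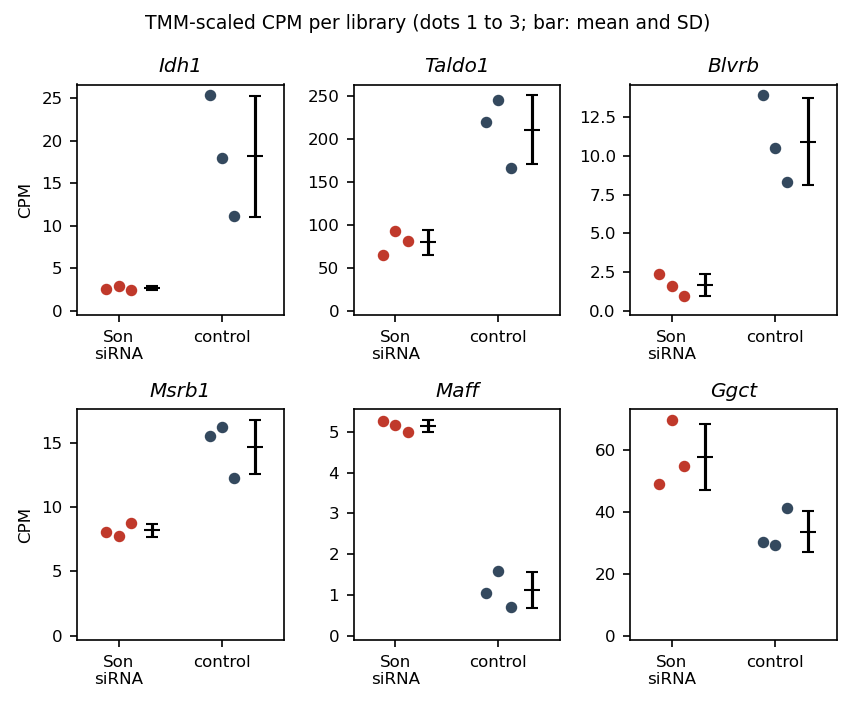
TMM-scaled CPM of 6 further pathway genes in each library, Son siRNA on the left of each panel and control on the right, with bars for the mean and SD (n = 3 each). Idh1, Taldo1, Blvrb and Msrb1 were lower, and Maff and Ggct higher, in every siRNA library than in any control.

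Among Nrf2 partners and further targets, 1 of 27 was lower. Blvrb, biliverdin reductase B, had 2.39, 1.59 and 0.974 CPM after siRNA, against 13.9, 10.5 and 8.34 CPM in control libraries (log2 -2.72, SE 0.45, edgeR adjusted p = 0.0378). Its call was lost without control 1 or 3 or any 1 siRNA library (edgeR adjusted p of 0.057 to 0.232). Maff, a small Maf protein that pairs with Nrf2 on DNA, had 5.28, 5.18 and 5 CPM after siRNA, against 1.06, 1.58 and 0.706 CPM in controls. In log2 the difference was 2.20 with an SE of 0.458 (edgeR adjusted p = 0.0656; DESeq2 adjusted p = 0.000187), and without control 2 it was 2.55 and past edgeR's threshold (adjusted p = 0.0453). The median of this list was 0.05.

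Of 30 other glutathione and thioredoxin enzymes, 0 passed edgeR's adjusted threshold, 5 had an unadjusted p under 0.05 beside 8.86% of all tested genes lower and 5.88% higher at that level, and DESeq2 called 1, the methionine sulfoxide reductase gene Msrb1. Msrb1 had 8.06, 7.77 and 8.75 CPM after siRNA, against 15.5, 16.2 and 12.3 CPM in control libraries (log2 -0.84, SE 0.294, edgeR adjusted p = 0.222; DESeq2 adjusted p = 0.0474). Ggct, which breaks down gamma-glutamyl amino acids, had 48.8, 69.5 and 54.7 CPM after siRNA, against 30.1, 29.3 and 41.1 CPM in control libraries (log2 0.78, SE 0.263, edgeR adjusted p = 0.206). Without control 3 DESeq2 called Ggct (log2 0.96, adjusted p = 0.0113), and of the 6 fits with 1 library left out this was also the 1 in which it called Msrb1 (adjusted p = 0.0161). The median of this list was 0.38, and 13 of its 43 entries were too low to be tested.

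**Figure D4:**
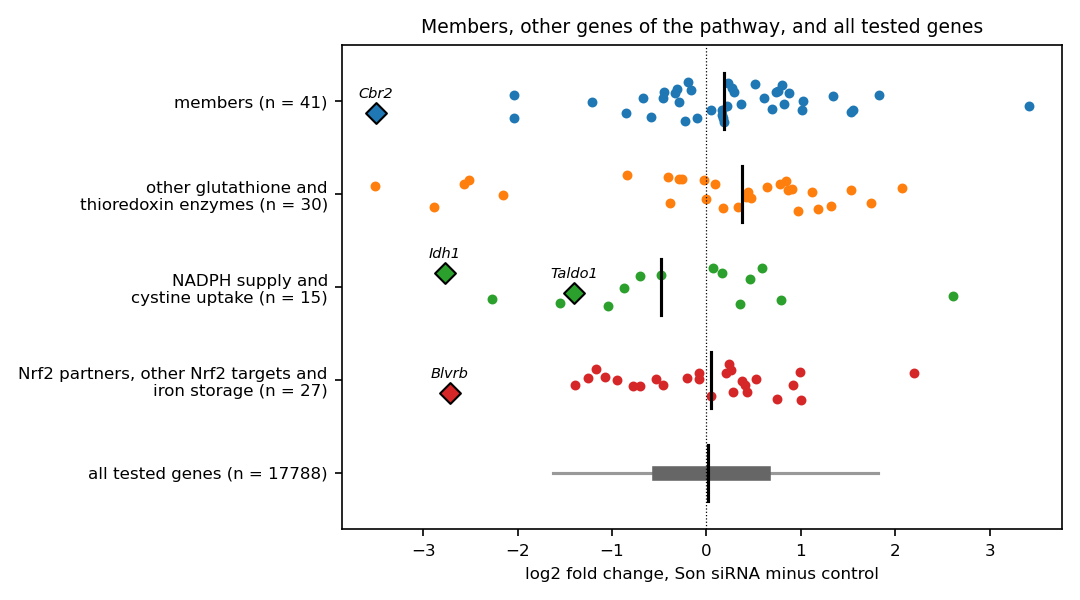
Log2 fold changes of Son siRNA minus control for the antioxidant genes, 3 further pathway lists and all 17788 tested genes. Points are genes, diamonds are genes past edgeR's adjusted p of 0.05, black lines are medians, and for all genes the thick bar spans the quartiles and the thin bar the 5th to 95th percentile; Cbr2, Idh1, Taldo1 and Blvrb are the 4 genes past it.

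Control libraries scattered more than siRNA libraries for these genes, as they did in the whole table. Over the 21 antioxidant genes at 10 CPM or more, the SD of log2 CPM had a median of 0.214 after siRNA and 0.395 in controls, and 17 of the 21 varied more among controls. Over all 6079 genes at that level the medians were 0.216 after siRNA and 0.423 in controls, with 80.3% more variable in controls. Heme oxygenase Hmox2 is an example, with 89.3, 86.2 and 83 CPM after siRNA and 56.8, 76.9 and 117 CPM in controls.

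**Figure D5:**
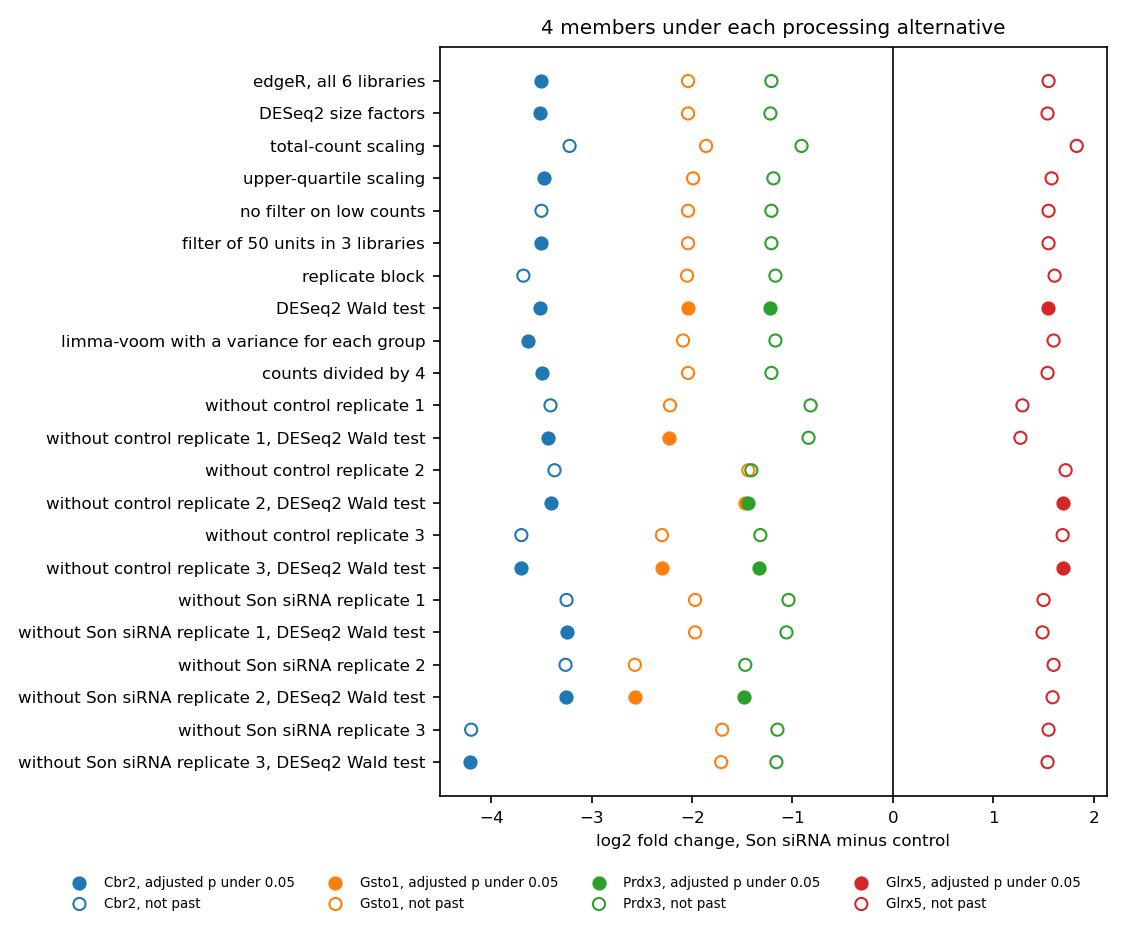
Log2 fold change of Son siRNA minus control for Cbr2, Gsto1, Prdx3 and Glrx5 under edgeR with all 6 libraries and each of 21 alternatives, filled where the adjusted p was under 0.05. No point changes sign; Cbr2 is filled in 12 of the alternatives, Gsto1 in 5, Prdx3 in 4 and Glrx5 in 3.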

How the data were processed

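Embryos were placed in lysis solution and cDNA libraries built by Smart-Seq2, per the labels' protocols; the standard Smart-Seq2 protocol does not keep strand. The submitters' processing notes name GRCm38, HISAT2 2.0.5 and StringTie 1.3.3b; the annotation release and the counting step are not stated there. Each library's table, as the authors deposited it, lists 46072 genes with estimated counts in whole numbers and no normalization. Among values of 1 to 40, 26.4% to 32.4% were multiples of 4 (25% by chance), so taking 4 units as 1 read pair is an assumption.

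Counts were used as deposited in edgeR 4.0.16 (R 4.3.3) with filterByExpr, TMM and the quasi-likelihood functions glmQLFit and glmQLFTest for siRNA minus control, no block, with Benjamini-Hochberg adjustment over all 17788 tested genes at 0.05. DESeq2 1.42.0, limma 3.58.1, other scalings and filters, counts divided by 4, the replicate block and leaving out each library were alternatives. Positions, principal transcripts, exon overlap and shared 100-base stretches came from GENCODE M21.

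Genes and lists were chosen with earlier results of these data known. The rule for named genes took Son, every gene past the threshold, and the 2 of smallest unadjusted p in each of 9 role groups and 3 pathway lists. The remaining antioxidant genes are described because they belong to the list. Those shown library by library outside the rule, and Bach1 and Dppa2, were chosen after their values were seen.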

Additional observations from a re-analysis of the deposited data

How the results depend on the processing

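The 25 named genes kept the sign of their fold change under each alternative that gave them a value, except Glrx3, which was 0.09 with total-count scaling; Srxn1 and Gstz1 were not tested under the stricter filter or with counts divided by 4. That scaling moved the median over all tested genes up by 0.29 in log2. It gave 35 genes lower and 7 higher, 0 antioxidant genes lower and an antioxidant median of 0.49, beside 0.31 for all genes. Without a filter 91 genes were lower and 9 higher, with 0 antioxidant genes lower (Cbr2, edgeR adjusted p = 0.0504). The stricter filter gave 245 lower and 43 higher, counts divided by 4 gave 279 and 51, and limma-voom gave 330 and 43 with an antioxidant median of 0.28. DESeq2's Wald test called 823 lower and 405 higher, among them 3 antioxidant genes lower and 1 higher. With the replicate number as a block edgeR called 0 genes lower and 0 higher (1997 at an unadjusted p under 0.05), 0 of them antioxidant genes, and the antioxidant median was 0.26. Deviations of same-numbered libraries from their group means correlated at -0.274, -0.332 and 0.0234 over 6079 genes, and no library correlated best with its own number. Deviations cancel within a group, so these values are tied together and cannot tell if same-numbered libraries share a litter or day. The labels give only the number.

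Leaving out siRNA library 1, 2 or 3, edgeR called 0 genes in each case (1786, 2348 and 1733 at an unadjusted p under 0.05), while DESeq2 called 492, 778 and 491 lower and 133, 231 and 97 higher. Leaving out control 1, 2 or 3, edgeR called 58, 231 and 79 lower and 6, 84 and 8 higher, and DESeq2 717, 1287 and 954 lower and 549, 1197 and 821 higher. Over these 6 omissions edgeR called 0 antioxidant genes in each, with a median of 0.12 to 0.39. DESeq2 called 2, 3 and 3 antioxidant genes lower and 2, 4 and 1 higher without control 1, 2 and 3, and 1, 4 and 1 lower and 0 higher without siRNA library 1, 2 and 3, with a median of 0.11 to 0.39 (0.31 without siRNA library 1). Low depth limits Cbr2, Srxn1, Gstm5, Gstz1, Gpx8 and Txnrd2, each with under 50 read pairs in a group.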
